A study of Mus musculus with 8 samples.

Results

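The genes of the endoplasmic reticulum (ER) stress response and of the integrated stress response were read in mouse thyroid after exposure to 99mTcO4-, the pertechnetate anion that thyroid cells take up through the sodium/iodide symporter. The set held 37 genes, chosen by symbol, from the stress sensors to the enzymes that degrade misfolded proteins, of 34797 genes with a probe on the array. All 37 symbols were found, on 49 probes: 29 genes had 1 probe and 8 had several. Thyroid RNA from 8 female Balb/c mice, 8 weeks old and fed a normal-iodide diet, was hybridised singly to one-colour Agilent arrays, with 4 control thyroids (controls 1 to 4) and 4 thyroids exposed to an absorbed dose of 30 Gy (S539, S588, S589 and S590), collected 24 hours after administration. The controls are called untreated in one place of the study and given saline in another. All 8 arrays lay on 1 slide, but the groups lay in different positions on it, so that position and exposure cannot be told apart.

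As background, proteins that enter the ER and fail to fold activate membrane sensors, which raise chaperone output, lower translation and send irreparable proteins to the proteasome. Phosphorylation of the translation factor eIF2alpha is shared with the integrated stress response, which also answers to amino acid shortage and feeds into the transcription factor ATF4. Thyrocytes load their ER heavily, since they secrete thyroglobulin in large amounts.

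Since the promoters of these genes are known for short elements that the stress factors bind, the 250 bases before the start of each gene, with 50 after it, were searched on both strands in the RefSeq promoter table of mouse assembly GRCm38.p6, which held 33 of the 37 genes. Atf6, Derl1, Hyou1 and Manf had no entry there. The ER stress response element, ERSE (CCAAT, 9 free bases, CCACG), was found in 6 of the 33 genes (18.2%), against 0.137% of all 27025 genes with a window. The shorter ERSE-II (ATTGG, 1 free base, CCACG) was found in Herpud1 alone (3.03% of the 33), and in 0.0444% of all genes. The element bound by C/EBP and ATF factors, CARE (TGATGNAA), was found in 7 of the 33 genes (21.2%) and in 4.51% of all genes. No window of the 33 genes held TGACGTGG, which was found in only 0.714% of all genes. TGACGTCA, which overlaps TGACGTGG in its first 6 letters, was found in Ppp1r15a (3.03% of the 33) and in 2.03% of all genes. A match is a description of letters, and the list was itself drawn from genes known for this response.

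The Herpud1 window is shown because, of the genes with a match, this one alone had groups that did not overlap on the probe that stands for the gene. It lies at chr8:94386302-94386402 on the plus strand, and capitals mark CARE, then ERSE-II:
Herpud1: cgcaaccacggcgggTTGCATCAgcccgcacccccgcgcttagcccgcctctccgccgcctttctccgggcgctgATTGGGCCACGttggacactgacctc

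The 6 ERSE genes are shown for comparison with it, since Herpud1 and Syvn1 were higher in exposed thyroids by unadjusted test and the others were not. Capitals mark the fixed letters of the element, read on either strand, in Calr (chr8:84847060-84847108, minus strand), Canx (chr11:50325785-50325833, minus), Creld2 (chr15:88819505-88819553, plus), Derl3 (chr10:75893227-75893275, plus), Pdia6 (chr12:17266476-17266524, plus) and Syvn1 (chr19:6046517-6046565, plus):
Calr: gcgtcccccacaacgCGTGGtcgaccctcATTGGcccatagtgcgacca
Canx: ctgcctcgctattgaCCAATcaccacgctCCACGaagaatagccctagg
Creld2: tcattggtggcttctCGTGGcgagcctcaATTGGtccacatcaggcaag
Derl3: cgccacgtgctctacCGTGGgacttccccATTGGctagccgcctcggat
Pdia6: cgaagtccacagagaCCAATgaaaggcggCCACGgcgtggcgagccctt
Syvn1: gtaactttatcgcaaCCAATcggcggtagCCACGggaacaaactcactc

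CARE is shown, in capitals, for Atf3 (chr1:191183424-191183455, minus strand), the regulator with the widest spread, and for 3 ATF4-linked enzymes and transporters, Asns (chr6:7693213-7693244, minus), Chac1 (chr2:119351037-119351068, plus) and Slc7a11 (chr3:50443641-50443691, minus), the last with a pair of elements:
Atf3: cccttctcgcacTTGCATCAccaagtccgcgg
Asns: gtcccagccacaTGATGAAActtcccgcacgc
Chac1: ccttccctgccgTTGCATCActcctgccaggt
Slc7a11: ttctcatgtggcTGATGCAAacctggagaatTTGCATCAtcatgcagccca

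No gene of the set passed an adjusted p of 0.05 in limma's moderated test of exposed against control arrays, the values being log2 signals after background subtraction and quantile normalization between arrays. Over the whole array, 0.781% of 55681 probes and 0.902% of genes passed, so that 0 of 49 probes and 0 of 37 genes lay near the background. The lowest adjusted p was 0.0776, for Adm2. Of 8 other ways of processing the signals, 6 brought 2 or 3 of the 37 genes past 0.05, which were Herpud1 and Cebpb, joined by Adm2 in the deposited values and with array weights. Under these 6 more genes passed over the whole array too: 1.83% with normexp background correction, 1.73% without correction, 1.99% in the deposited values, 2.15% after a filter on dim probes, 1.65% with a variance trend and 1.93% with array weights. With the mean of all probes of a gene, or any probe of it, 0 of the 37 passed. At an unadjusted p below 0.05 there were 6 of 37 genes, of which 4 were higher (Herpud1, Cebpb, Ddit3, Syvn1) and 2 lower (Adm2, Phgdh), against 12.9% of all genes. The values of both groups did not overlap for 4 of 37 genes, against 9.99% of all genes. Both shares were near the background. The median log2 fold change was 0.05 over the 37 genes and 0.01 over all genes, with 21 genes above 0 and 16 below it (18 to 24 above 0 over the alternatives). Slc7a11, well above background on 1 array, is counted among the 21, though no fold change is given for it below. The difference was under 0.5 log2 units in either direction for 30 of 37 genes, Slc7a11 included, against 25442 of all 34797 genes. For 25 of 37 the 95% confidence interval lay within 1 log2 unit of 0, against 19096 of all genes.

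**Figure D1:**
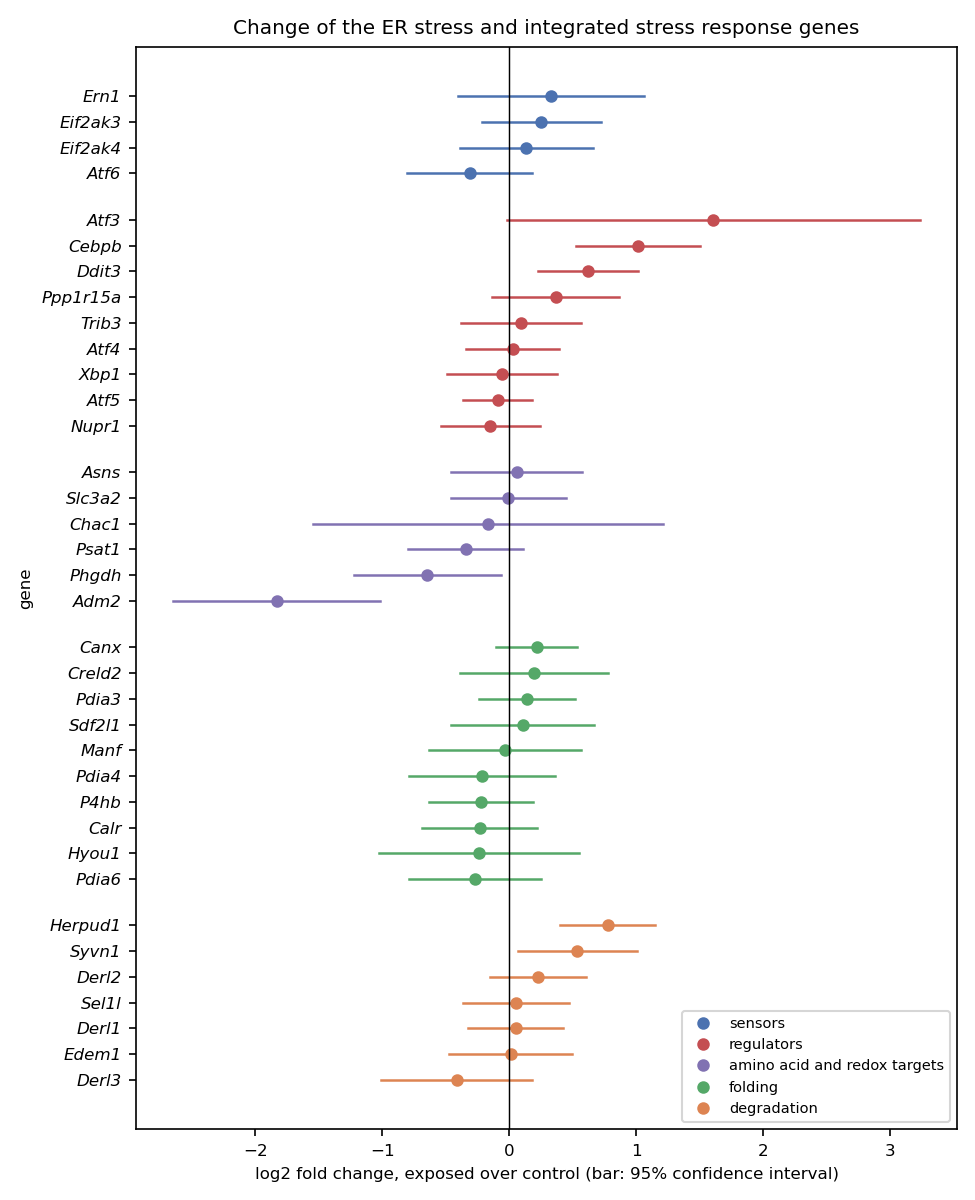
Log2 fold change of exposed over control arrays (horizontal axis) with its 95% confidence interval, by gene and role, for 36 genes (Slc7a11, above background on 1 array, is left out). Most intervals cross 0, and those of Cebpb, Ddit3, Herpud1, Syvn1, Phgdh and Adm2 do not.

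Between 60.5% and 77.3% of spots were well above background, and none was saturated. The 75th percentile of the signal was 701 to 1230 on control and 712 to 891 on exposed arrays. The scores below are means of the genes' log2 signals, each centred over the 8 arrays. The 12 thyrocyte markers were all on the array, 11 of them above background on every array, and scored 0.07 to 0.79 on control and -0.53 to -0.24 on exposed arrays, and 2 of 12, Slc5a5 and Dio1, had fallen. T cell and thymocyte transcripts divided the controls. The 7 T cell markers scored 3.25 and 2.07 on controls 1 and 2, against -0.89 and -0.996 on controls 3 and 4 and -1.20 to -0.14 on exposed arrays. For the 6 thymocyte markers the scores were 3.75 and 2.78, against -1.42 and -1.65 and -1.46 to -0.06. Skeletal muscle (7 markers) ranged from -1.41 on S539 to 1.01 on control 4. In whole thyroids, fewer cells of a type and less RNA per cell cannot be told apart, and the part of these cells in the results below was not tested. Each result was therefore also computed with controls 1 and 2 left out.

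None of the 4 sensors had an unadjusted p below 0.05. In the text below, values are given for controls 1, 2, 3 and 4 and for exposed S539, S588, S589 and S590, in these orders. Eif2ak3 encodes PERK, the ER kinase of eIF2alpha, and read 10.41, 10.74, 11.14 and 10.39 in controls and 10.91, 10.86, 11.16 and 10.76 in exposed thyroids. The groups overlapped, with a log2 fold change of 0.25 (95% interval -0.21 to 0.72, adjusted p = 0.633, limma). Ern1 encodes IRE1alpha, the kinase and ribonuclease that splices Xbp1 mRNA, and read 9.28, 9.38, 10.09 and 9.87 in controls and 10.60, 9.33, 10.26 and 9.74 in exposed thyroids, a log2 fold change of 0.33 (-0.41 to 1.06). S539 was the highest array and control 1 the lowest. Of the 3 other Ern1 probes, made to Ensembl transcripts, the fold changes were 0.31 and 0.36 and, for a probe above background on 1 array, no fold is given. Atf6, the sensor that is cut in the Golgi apparatus to release a transcription factor, read 8.87, 9.22, 9.67 and 9.51 in controls and 9.13, 8.67, 9.17 and 9.06 in exposed thyroids, with a log2 fold change of -0.31 (-0.80 to 0.18). Eif2ak4 encodes GCN2, the eIF2alpha kinase that senses uncharged tRNA, and its fold change was 0.14 (-0.38 to 0.66), with 0.25 and -0.17 for its other probes. Splicing of Xbp1, phosphorylation of the kinases and cleavage of ATF6 are not seen by these probes.

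Among the 9 transcriptional and translational regulators, 6 were higher and 3 lower (7 and 2 with scaling to the 75th percentile, 5 and 4 in the deposited values, 4 and 5 without controls 1 and 2), 2 at an unadjusted p below 0.05. Cebpb encodes C/EBPbeta, a factor that pairs with ATF4 and CHOP and also serves inflammatory and differentiation programmes. It is read by a probe at chr2:167515828-167515887 of assembly mm9, as the array files give it, and the first 30 of its 60 bases are:
Cebpb probe: agaggcgtatgtatattttgagaacctttt

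Cebpb read 13.24, 12.54, 12.40 and 12.73 in controls and 13.48, 13.84, 13.93 and 13.73 in exposed thyroids. Every exposed array lay above every control, and control 1 was nearest to them. The log2 fold change was 1.01 ± 0.21 (SE, n = 4 per group; 95% interval 0.52 to 1.505), which is 2.02-fold, with an adjusted p of 0.0990 in limma and an exact two-sided permutation p of 0.0286, the smallest that 4 against 4 arrays can give. Under 6 of the 8 other ways of processing the signals, Cebpb passed 0.05, with an adjusted p from 0.0207 to 0.0971 over the 8, and with the mean of all probes of each gene its adjusted p was 0.0796. It also passed with control 1 left out (0.0377), and not with any other single array left out. With controls 1 and 2 left out, its fold change was 1.18 and its adjusted p 0.136.

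Ddit3 encodes CHOP, the factor downstream of PERK and ATF4 that is linked to cell death under lasting ER stress. Its 60-base probe is placed in mm9 at chr10:126732518-126732821, a span of 304 bases, and so is not contiguous in the genome. It begins:
Ddit3 probe: ccccaggaaacgaagaggaagaatcaaaaa

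Ddit3 read 10.48, 9.87, 10.14 and 10.10 in controls and 10.56, 10.85, 10.94 and 10.73 in exposed thyroids. The groups did not overlap, with a gap of 0.09 between control 1 and S539. The log2 fold change was 0.62 ± 0.17 (95% interval 0.23 to 1.02), or 1.54-fold, with an adjusted p of 0.194 in limma, and the gene passed 0.05 under none of the alternatives tried (lowest adjusted p 0.0588, with array weights). Without controls 1 and 2 its fold change was 0.65.

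Atf3 encodes a repressor that many stresses induce, and read 9.78, 8.34, 9.31 and 9.51 in controls and 10.38, 10.62, 9.47 and 12.90 in exposed thyroids. S590 stood far above the other exposed arrays and S589 lay within the range of the controls. The fold change of 1.61 ± 0.70 (95% interval -0.02 to 3.23) had an adjusted p of 0.416 in limma, and its spread within groups, an SD of 1.12, was the largest of the 37 genes. Without S590 the fold change was 0.92.

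Atf4, the factor at the centre of the integrated stress response and controlled largely through its translation, read 15.34, 15.21, 15.54 and 15.68 in controls and 15.65, 15.27, 15.44 and 15.52 in exposed thyroids. The groups covered the same range, and the 95% interval of the log2 fold change ran from -0.34 to 0.39 around 0.03. Its second probe gave 0.08. Xbp1, the factor made active by IRE1alpha splicing, read 15.22, 15.53, 15.96 and 15.38 in controls and 15.59, 15.26, 15.53 and 15.49 in exposed thyroids, with control 3 the highest array and a log2 fold change of -0.06 (-0.49 to 0.38) that took the other sign (0.01) when arrays were scaled to their 75th percentile. The remaining regulators also overlapped between groups. Ppp1r15a encodes GADD34, which guides a phosphatase back to eIF2alpha, and had a fold change of 0.37 (-0.13 to 0.86). Trib3, a pseudokinase that restrains CHOP and ATF4 signalling, had 0.10, Atf5, a relative of ATF4 with the smallest spread of the set, had -0.09, and Nupr1, a small stress-induced chromatin protein, had -0.15.

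**Figure D2:**
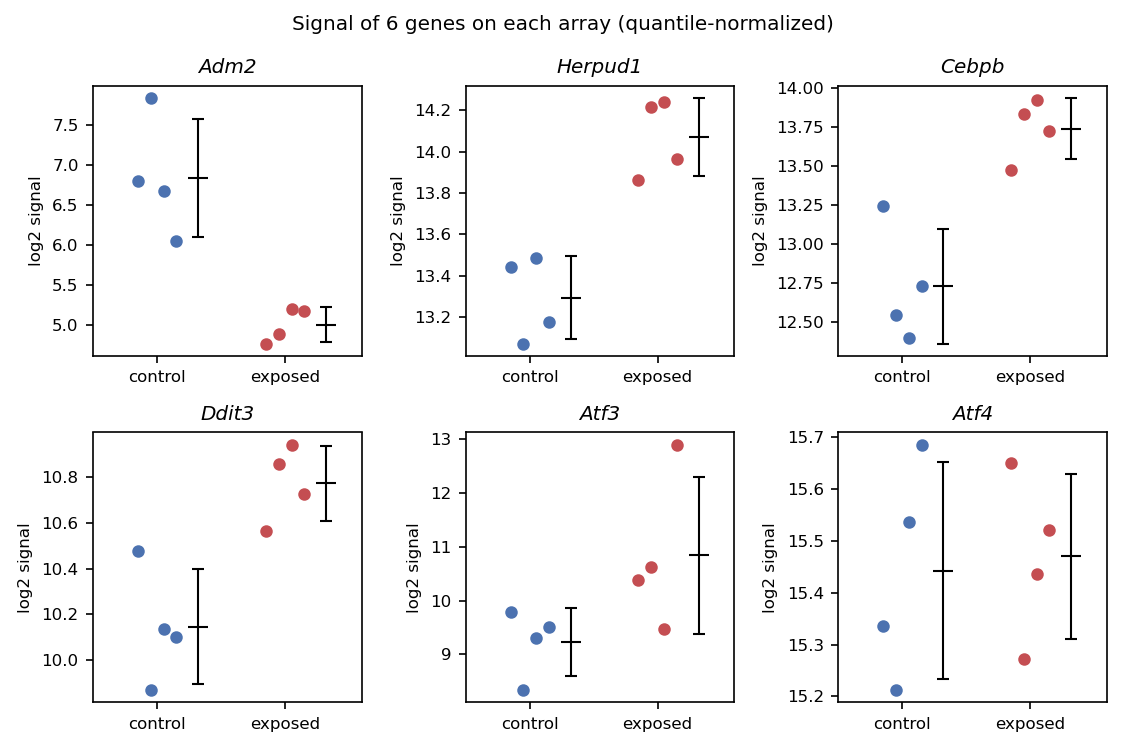
Log2 signal (vertical axis, each panel with its own range) of 6 genes on the 4 control (blue) and 4 exposed (red) arrays, 1 point per array, with the mean and SD in black. The groups are apart for Adm2, Herpud1, Cebpb and Ddit3, Atf3 is drawn up by 1 exposed array, and Atf4 covers the same range in both groups.

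Of the 7 amino acid and redox targets of ATF4, Slc7a11 has no fold change, and of the other 6, 5 were lower and 1 higher (4 and 2 with scaling to the 75th percentile, normexp correction, no correction, the deposited values or array weights, 3 and 3 without controls 1 and 2). Adm2, also called intermedin, is a secreted peptide of the calcitonin family that ATF4 is known to induce. Its probe lies at chr15:89155040-89155099 in mm9 and begins:
Adm2 probe: atcttaaatgcatctctacctatgaataag

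Adm2 read 6.80, 7.83, 6.68 and 6.06 in controls and 4.77, 4.89, 5.20 and 5.18 in exposed thyroids. Every exposed array lay below every control, and control 2 was the highest. The log2 fold change was -1.83 ± 0.35 (95% interval -2.64 to -1.01), or 3.55-fold lower, with an adjusted p of 0.0776 in limma and an exact permutation p of 0.0286. These signals were dim, well above background on 3 of 4 control and 2 of 4 exposed arrays. The size depended on the background step: the fold change was -0.87 with normexp correction, -0.96 without correction and -1.06 in the deposited values, where its adjusted p was 0.0494. It also passed with array weights (0.0405), and the gene was not tested when dim probes were left out. Without controls 1 and 2 the fold change was -1.35 (adjusted p = 0.153, limma).

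Phgdh, the first enzyme of serine synthesis, read 12.04, 12.44, 11.96 and 11.41 in controls and 11.39, 11.32, 11.64 and 10.92 in exposed thyroids, and S589 was above the lowest control. Its fold change was -0.65 ± 0.25 (95% interval -1.23 to -0.07; adjusted p = 0.365, limma), and the second probe gave -0.62. Psat1, the next enzyme of the same path, had -0.34 (-0.79 to 0.11), with -0.22 on its second probe. Asns, the asparagine synthetase used as a standard readout of ATF4, read 12.42, 12.66, 12.83 and 12.41 in controls and 12.63, 12.54, 13.16 and 12.22 in exposed thyroids, a difference of 0.06 (-0.45 to 0.57). Slc3a2, the heavy chain shared by several amino acid transporters, had -0.0057 (-0.46 to 0.45), a value whose sign changed with the background step and the scaling. Chac1, which degrades glutathione, varied by over 2 log2 units among controls, from 9.44 on control 3 to 11.95 on control 1, and its fold change of -0.17 had an interval of -1.54 to 1.21 and took the other sign with array weights (0.22). Slc7a11, the cystine transporter that supplies glutathione synthesis, was not well above background on any control and was above it on S589 alone among exposed thyroids, so that no fold change is given.

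On the probe that stands for each gene, the 10 folding genes differed by -0.27 to 0.22 log2 units, with no unadjusted p below 0.05, and for 9 of 10 the 95% interval lay within 1 log2 unit of 0. Canx encodes calnexin, a lectin chaperone of glycoproteins such as thyroglobulin, and read 14.38, 14.55, 14.72 and 14.30 in controls and 14.63, 14.66, 14.79 and 14.72 in exposed thyroids, with control 3 alone in the range of the exposed group. Its log2 fold change was 0.22 (-0.11 to 0.54). For Calr, or calreticulin, its soluble counterpart, the fold change was -0.23 (-0.68 to 0.22). Pdia6, a protein disulphide isomerase that also attenuates IRE1alpha, read 15.51, 15.80, 16.34 and 15.57 in controls and 15.40, 15.34, 15.89 and 15.53 in exposed thyroids, a fold change of -0.27 (-0.79 to 0.25). Its second probe lay outside that range, at -0.46, with an unadjusted p of 0.0256 and an adjusted p of 0.334 in limma. The groups of that probe did not overlap, though by a gap of only 0.0011. Counted by probe, groups did not overlap for 5 of 49 in the set and 5074 of all 55681. The other disulphide isomerases gave 0.14 (Pdia3), -0.21 (Pdia4) and -0.22 (P4hb). Hyou1, a large chaperone of the heat shock family, had -0.24, Manf, a secreted ER stress factor, -0.03 (0.08 with normexp correction), Creld2, an ER resident protein, 0.19, and Sdf2l1, a partner of J-domain chaperones, 0.11.

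Of the 7 genes of ER-associated degradation, 6 were higher and 1 lower. The split was 4 and 3 with normexp correction, without background correction or without controls 1 and 2, and 5 and 2 in the deposited values, since Edem1 and Derl1 lay near 0. Herpud1 encodes a membrane protein that organises the ubiquitin ligase complex at the ER and is itself one of the most inducible ER stress genes. Its probe lies at chr8:96919117-96919176 in mm9 and begins:
Herpud1 probe: tagcaggacttttctaggagagacttatgt

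Herpud1 read 13.44, 13.07, 13.48 and 13.18 in controls and 13.86, 14.22, 14.24 and 13.96 in exposed thyroids. Every exposed array lay above every control, the nearest pair being control 3 and S539, 0.38 apart. The log2 fold change was 0.78 ± 0.16 (95% interval 0.40 to 1.15), or 1.71-fold, with an adjusted p of 0.0981 in limma and an exact permutation p of 0.0286. As with Cebpb, it passed 0.05 under 6 of the 8 other ways of processing the signals, with an adjusted p from 0.0299 to 0.0961. It did not pass with the mean of all probes of each gene (0.0774), nor with any single array left out. The fold change itself moved little, from 0.70 to 0.85 over all alternatives. Without controls 1 and 2 it was 0.74, with an adjusted p of 0.250.

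Syvn1 encodes HRD1, the ubiquitin ligase of that complex, and read 13.87, 13.97, 14.52 and 13.70 in controls and 14.65, 14.61, 14.65 and 14.31 in exposed thyroids. Control 3 lay above S590, and the fold change of 0.54 ± 0.20 (95% interval 0.07 to 1.01) had an adjusted p of 0.353 in limma. Sel1l, the adaptor that holds HRD1, had 0.06 (-0.36 to 0.47). Edem1, which trims mannose from glycoproteins bound for degradation, had 0.01 (-0.47 to 0.50). The derlins are membrane proteins through which substrates leave the ER. Derl1 had 0.05 and Derl2 0.23, while Derl3 read 12.56, 12.70, 13.39 and 12.41 in controls and 12.11, 12.42, 12.76 and 12.11 in exposed thyroids, a fold change of -0.41 (-1.01 to 0.18, adjusted p = 0.546, limma).

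Read by promoter element, the 6 genes with ERSE had log2 fold changes of -0.41 (Derl3) to 0.54 (Syvn1), 3 of them above 0, and Herpud1 with ERSE-II stood at 0.78. Of the 7 genes with CARE, Slc7a11 has no fold change, and the other 6 ran from -0.17 (Chac1) to 1.61 (Atf3), with 4 above 0 (3 in the deposited values, 5 with array weights). None passed the adjusted test, and Adm2, Cebpb and Ddit3 held none of the 5 elements in their windows.

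**Figure D3:**
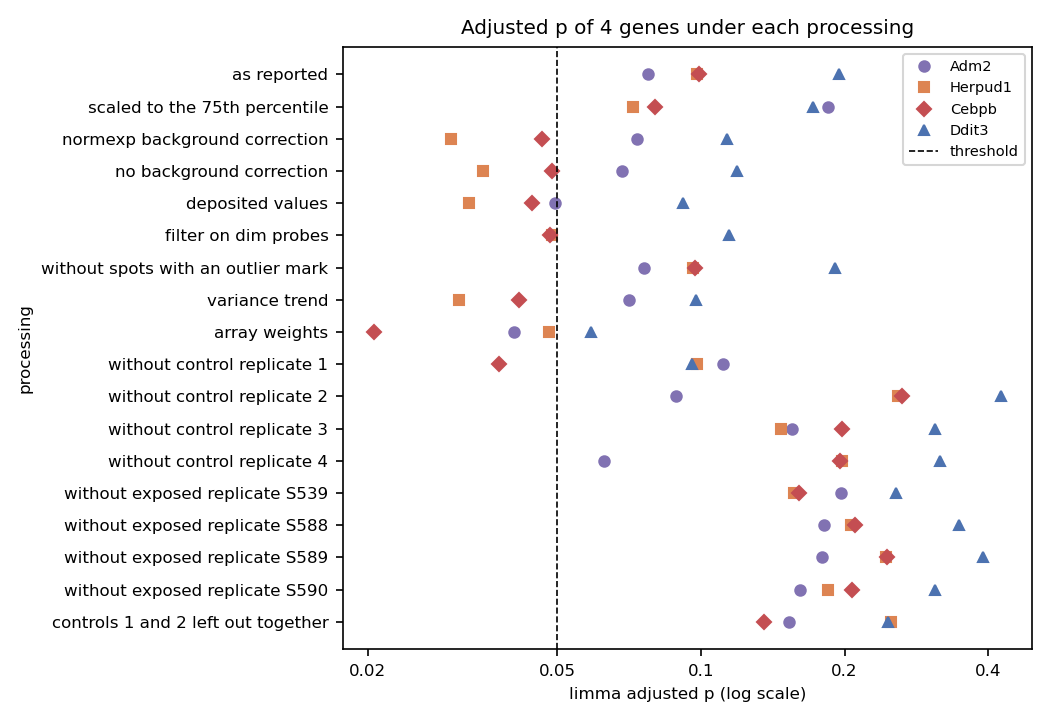
Adjusted p of limma (horizontal axis, log scale) for Adm2, Herpud1, Cebpb and Ddit3 under each way of processing and with arrays left out (rows). The dashed line is at 0.05: Herpud1 and Cebpb fall below it in 6 of the 8 other ways of processing the signals, and with arrays left out only Cebpb without control 1 does.

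The arrays of a group also differed from each other in a shared manner. In all 17 folding and degradation genes control 3 had the highest value among the controls, by a median of 0.44 log2 units above the group's mean, where over all genes this array was the highest control for 26.7%. Among exposed thyroids S589 was the highest for 14 of 17, against 24.9% of all genes, with a median of 0.25 above the mean. Control 4 was the lowest control for 11 of 17. Genes of the same ER machinery outside the set showed the same array: control 3 was the highest control for 16 of 16 further ER chaperones and oxidases and for 11 of 12 translocon and export genes. S589 was the highest exposed array for 8 of those 12, but for only 6 of those 16, where S539 was the highest for 7. The thyrocyte score was also highest on control 3, at 0.79, with 0.65 on control 2, and it was -0.45 on S589, within the range of the exposed arrays. The score of 8 plasma cell markers, another secretory cell type, was -0.21 on control 3 and 0.15 on S589. These markers did not move together between exposed and control arrays. Of the 8, 1 passed the adjusted test, 2010001M09Rik, higher by 1.695 log2 units (adjusted p = 0.00489, limma). The median fold change of the 8 was -0.341. The 6 endothelial markers were highest on control 3 among the controls (0.41, with -0.34 to 0.04 on the others) and on S589 among exposed arrays (0.0998, with -0.18 to 0.07). C cell and parathyroid scores were also highest on control 3 among the controls, at 0.30 and 0.19, and were 0.0978 and -0.05 on S589. Skeletal muscle went the other way among controls, lowest on control 3 (-0.17) and highest on control 4 (1.01), and scored -1.19 on S589. Adipocyte markers scored 0.0042 on control 3 and 0.64 on S589, their highest array. The part of these cells in this pattern was not tested. With control 3 left out the median fold change of the 37 genes was 0.14, and with S589 left out it was -0.04.

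**Figure D4:**
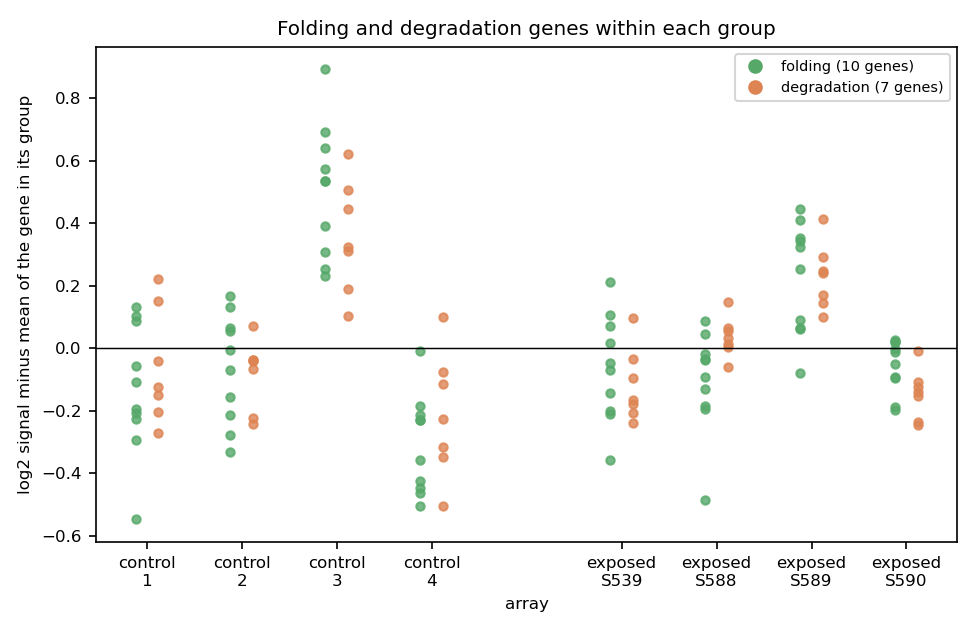
Log2 signal of the 10 folding and 7 degradation genes on each array (horizontal axis) minus the gene's mean in its own group (vertical axis), 1 point per gene. Control 3 is above 0 for all 17 genes and S589 for most of them, while controls 1 and 4 lie mostly below 0.

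The nearby pathway was read in 95 further genes found on the array, of 96 listed. Of these, 6 passed the adjusted test (5 higher, 1 lower), all others not, against 0.902% of all genes. The list was chosen with earlier results of these data known, so its share beside that of all genes is no test. No gene of 16 ER chaperones and oxidases, 11 of ER-associated degradation, 12 of translocon and export or 21 of signalling passed. Hspa5, or BiP, the chaperone whose level is the usual sign of the unfolded protein response, read 16.03, 16.14, 16.81 and 15.91 in controls and 16.18, 16.23, 16.67 and 16.22 on exposed arrays, a log2 fold change of 0.10 (-0.43 to 0.63). Control 3 was the highest of the 8 arrays, and the fold change turned to -0.04 without controls 1 and 2. Hsp90b1, or GRP94, had 0.08 (-0.32 to 0.48) and turned to -0.02 in the deposited values, and Dnajb9, an IRE1alpha-linked co-chaperone, had 0.31 (-0.27 to 0.89).

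The 5 genes that passed and rose were all among the 23 listed as ATF4-linked, and Ddit4, Sesn2, Tnfrsf10b and Gdf15 are also known as p53 targets. Of the 23, 14 were higher and 9 lower. At an unadjusted p below 0.05, 6 were higher and 3 lower, against 12.9% of all genes in both directions. Because these lists were drawn up with earlier results known, the place of the 5 genes in them is a description only. Whether ATF4 had a part was not tested. Ddit4 (REDD1), an inhibitor of mTORC1, read 13.06, 12.95, 12.91 and 12.79 in controls and 15.18, 15.12, 15.49 and 15.28 in exposed thyroids. This rise of 2.34 ± 0.14, or 5.07-fold (adjusted p = 0.00130, limma), passed under every alternative tried. Sesn2, a leucine-sensing inhibitor of mTORC1, read 11.36, 11.22, 11.36 and 11.18 in controls and 13.65, 12.82, 12.85 and 12.94 in exposed thyroids, a rise of 1.78 ± 0.21 (adjusted p = 0.0142, limma) that did not pass without control 2 or without S590, nor with controls 1 and 2 both left out.

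Tnfrsf10b, the death receptor DR5 that CHOP is known to induce, read 9.84, 9.79, 10.15 and 10.16 in controls and 12.62, 11.80, 11.92 and 11.95 in exposed thyroids. It rose by 2.08 ± 0.21 (adjusted p = 0.00845, limma), and passed with any single array left out, but not with controls 1 and 2 both left out (1.91). Cbs, which starts the transsulphuration path from homocysteine to cysteine, read 8.49, 8.98, 8.65 and 8.29 in controls and 11.93, 10.80, 10.698 and 11.09 in exposed thyroids, with S539 the highest array. Its rise of 2.52 ± 0.30 (adjusted p = 0.0147, limma) did not pass without S590, nor with controls 1 and 2 both left out.

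Gdf15, a circulating stress cytokine, read 11.02, 11.97, 14.00 and 13.79 in controls and 17.30, 16.56, 16.82 and 17.03 in exposed thyroids. Controls 1 and 2, the arrays with many T cell and thymocyte transcripts, lay below controls 3 and 4, and all exposed arrays lay above every control. The rise was 4.23 ± 0.65 (adjusted p = 0.0363, limma), and was 3.03, still past 0.05, with controls 1 and 2 both left out. It did not pass without control 2, without control 4 or without any 1 of the exposed arrays, at 3.99 to 4.59 on the log2 scale.

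The aminoacyl-tRNA synthetases, which ATF4 is known to raise, were lower for 10 of 12 genes, with a median of -0.26 log2 units against 0.01 over all genes. This was not particular to them: the translocon and export genes were lower for 11 of 12, with a median of -0.24. The cause of either was not tested. Of the synthetases only Yars, the tyrosyl-tRNA synthetase, passed, at 7.13, 7.22, 7.40 and 7.24 in controls and 6.62, 6.27, 6.43 and 6.44 in exposed thyroids. Its change of -0.81 ± 0.13 (adjusted p = 0.0469, limma) did not pass with any array left out, nor with scaling to the 75th percentile, a variance trend or controls 1 and 2 left out.

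**Figure D5:**
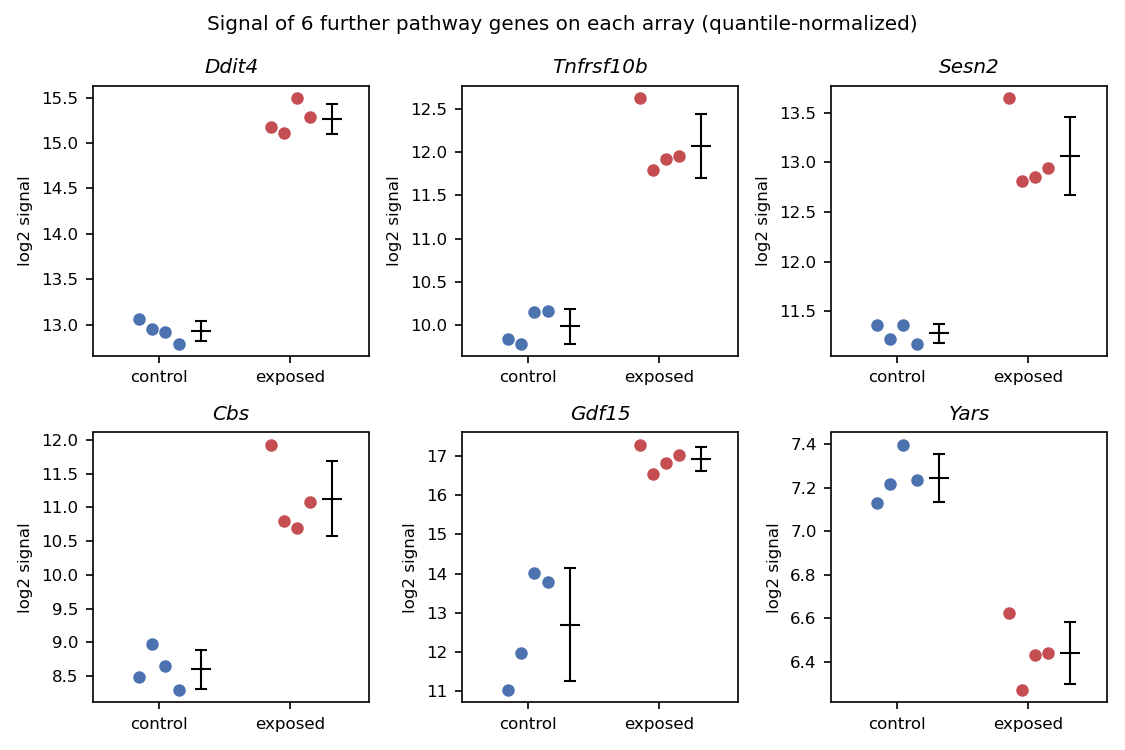
Log2 signal (vertical axis, each panel with its own range) of the 6 further pathway genes that passed the adjusted test, on 4 control (blue) and 4 exposed (red) arrays, 1 point per array, with the mean and SD in black. The groups are apart in every panel, and Gdf15 shows a pair of low and a pair of high controls.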

How the data were processed

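Thyroid RNA of 4 control and 4 exposed mice was labelled with Cy3 and read on one-colour arrays, 1 per thyroid. Scanner files, deposited by the authors from Feature Extraction 10.7.3.1, give every spot an intensity before and after background subtraction. A further deposited table holds log2 values, and setting it beside the scanner files showed that these were median spot signals, logged and quantile-normalized but not centred by gene, within 0.0378 (median absolute difference 0.0113). The submitters' processing notes name limma.

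The log2 of the background-subtracted intensity was quantile-normalized, control spots were left out, and the spots of a probe were averaged. Groups were compared with limma 3.58.1 in R 4.3.3 (lmFit and eBayes) and Benjamini-Hochberg adjustment over all 55681 probes, at a threshold of 0.05. The fitting script was tested on simulated data. A gene was read by its RefSeq probe of highest mean signal. Two-sided exact permutation tests used all 70 assignments of arrays. Positions of probes were taken from the scanner files (mm9), and the accessions of 37 of 37 genes matched the same symbol in the RefSeq table of GRCm38.p6. Arrays give no read depth, and their number limits the precision.

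The genes and lists were chosen with earlier results of these data known. Genes named in the text were those whose groups did not overlap, the brightest, the most raised and the most lowered of each role, Hspa5, Hsp90b1 and Dnajb9, and further pathway genes past the threshold. The other genes of the set are given by their fold change, and those with an unadjusted p below 0.05 were named after their values were seen. Alternatives were scaling to the 75th percentile, normexp correction (offset 50), no background correction, the deposited log2 values, a filter on dim probes, leaving out spots with an outlier mark, a variance trend, array weights, the mean of all probes of a gene, any probe of the gene, and each array left out in turn.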

Additional observations from a re-analysis of the deposited data

Results flagged for a closer look

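In groups of 4 arrays, Dixon's test was applied to log2 signals of the genes of the set named by the rule above, Slc7a11 left out. It was also applied to the scores of the roles of the set and of the cell type markers. There were 64 groups in all, of which chance passes about 1 in 20, or 3.2 here. The further pathway genes and their scores were not tested in this way. In 5 groups 1 array stood apart. Slc3a2 read 14.50 on S539 against 13.93 to 13.98 on the other exposed arrays. Syvn1 read 14.31 on S590, where the other exposed arrays lay between 14.61 and 14.65. The folding genes scored 0.20 on S589, against -0.13 to -0.09 on the other exposed arrays. T cell markers scored -0.14 on S539 and -1.20 to -1.04 on the other exposed arrays. Macrophage markers scored -0.0875 on control 3, with 0.20 to 0.26 on the other controls.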

How the results depend on the processing

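The 4 arrays per group limit what could be called, and dim genes such as Adm2 depend on the background step. With normexp correction 856 probes passed, 827 without background correction, 955 in the deposited values, 733 after the filter on dim probes, 744 with a variance trend and 959 with array weights, against 435 as reported. The counts of probes and of genes of the set that passed were then 2, 2, 3, 2, 2 and 3, in that order (Herpud1 and Cebpb, with Adm2 in the deposited values and with array weights). The filter tests fewer probes, and the cause of the other differences was not tested. The count was 0 with scaling to the 75th percentile, without outlier spots, with the mean of all probes of a gene and with any probe of the gene. Of the calls over all probes, 75.2% were higher as reported, 60.9% with array weights and 84.7% with scaling to the 75th percentile, and 65.5% (without control 1) to 86.5% (without S588) with single arrays left out. Scaling to the 75th percentile moved the median of all probes to 0.16. Relative to that shift the fold change was 0.86 for Cebpb, 0.62 for Herpud1, 0.45 for Ddit3 and -1.63 for Adm2. Of the 37 genes, Slc7a11 included, 12 lay above the shift and 25 below it. With each array left out in turn, 100 to 481 probes, 0 to 1 probes and 0 to 1 genes of the set, and 2 to 6 further pathway genes passed, the latter 3 without control 2 and 2 without S590, and the median fold change of the 37 genes ranged from -0.04 to 0.14. With controls 1 and 2 both left out, an alternative chosen after seeing the data, 89 probes, 0 genes of the set and 2 further pathway genes (Ddit4 and Gdf15) passed. Among the named genes, those near 0 took the other sign: Xbp1 at 0.0146 with percentile scaling, Slc3a2 at 0.0269 with it, 0.0142 with normexp correction, 0.0144 without correction, 0.0165 in the deposited values and 0.13 without controls 1 and 2, Hsp90b1 at -0.0220 in the deposited values and Hspa5 at -0.0407 without controls 1 and 2. With single arrays left out, Xbp1 ranged from -0.16 to 0.0891, Slc3a2 from -0.14 to 0.11, Hspa5 from -0.0153 to 0.30 and Hsp90b1 from -0.0026 to 0.19. Of the other genes of the set, the sign also turned for Manf (0.0048 with percentile scaling, 0.08 with normexp correction), Edem1 (-0.02), Derl1 (-0.0012), both with normexp correction, Trib3 (-0.0023 in the deposited values) and Chac1 (0.22 with array weights), and with arrays left out for Asns, Atf4, Eif2ak4, Hyou1, Sdf2l1 and Sel1l. No paired analysis was possible because the groups share no replicate numbers in the labels.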
